A study of Homo sapiens and Mus musculus with 12 samples.

Results

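The complement components and regulators were followed in MDA-MB-231, a human triple-negative breast cancer (TNBC) cell line, and in 4T1, a mouse mammary carcinoma cell line. The members were fixed by symbol: C3, C1R, C1S, CFB, CD55, CD59, SERPING1 and CLU in human cells, and C3, C1ra, C1s1, Cfb, Cd55, Cd59a, Serping1 and Clu in mouse cells. All 8 genes were found in the table of 63677 human genes and all 8 in the table of 47729 mouse genes, which makes 16 members among 111406 genes. Cells of both lines, labelled wild type and epithelial, were grown in DMEM with fetal bovine serum and were exposed for 24 h either to ponatinib, a multi-targeted tyrosine kinase inhibitor, at 1 μmol/L or to its solvent DMSO. RNA-seq counts were analysed for 3 libraries per group, 12 in all: MDA-MB-231 with DMSO, MDA-MB-231 with ponatinib, 4T1 with DMSO and 4T1 with ponatinib. Both are established lines grown without immune or stromal cells of a host, so the values describe transcripts of tumor cells in culture and not complement protein or its activity.

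Complement is a cascade of plasma and cell-surface proteins. In the classical pathway, C1q recognizes a target and switches on the serine proteases C1r and C1s, which cleave C4 and C2 to form a C3 convertase. In the alternative pathway, factor B (CFB) joins deposited C3b to form a further C3 convertase. Both routes cleave C3, the central component, whose fragment C3b marks surfaces for uptake and whose fragment C3a recruits and activates immune cells, and the cascade can end in a membrane attack complex. Host cells hold it back at several steps: CD55 (decay-accelerating factor) breaks up C3 convertases on the membrane, CD59 blocks assembly of the membrane attack complex, SERPING1 (C1 inhibitor) inactivates C1r and C1s, and CLU (clusterin) is a secreted chaperone that binds terminal complexes. Liver cells are the main source of the plasma proteins, and epithelial and tumor cells also make several of them.

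Total counts ran from 15012884 to 17301760 per MDA-MB-231 library and from 17800675 to 18951493 per 4T1 library. Replicate 1 stood apart in every group: the chi-square per gene was 8.88 to 16.2 in the pairs that held it and 2.98 to 7.07 between replicates 2 and 3, so each result was also computed without it. Of the epithelial markers, KRT8 (890 CPM with DMSO) and KRT19 (737 CPM) were abundant in MDA-MB-231, while CDH1, the adhesion molecule E-cadherin, was listed with 1 count in its 6 libraries and KRT5 with 0. In 4T1, Cdh1 (830 CPM) and Krt8 (2389 CPM) were abundant, Epcam was low (2.86 CPM) and Krt5 had 1 count. Mesenchymal markers were abundant as well with DMSO: VIM (1288 CPM) in MDA-MB-231, and Vim (3257 CPM) and Fn1 (3414 CPM) in 4T1. FN1 had 123 CPM in MDA-MB-231, and CDH2 and Cdh2 were too low to be tested. Of the macrophage and leukocyte markers, PTPRC had 0 counts in MDA-MB-231 while ADGRE1 had 11.8 CPM with DMSO, and Adgre1 had 0 counts in 4T1 while Cd14 had 237 CPM. Tests were run over all genes of a line with the quasi-likelihood F-test of edgeR and Benjamini-Hochberg adjustment, a gene was called at an adjusted p under 0.05, and levels are given in CPM, a gene's counts scaled to the TMM-adjusted total of its library.

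Promoters are shown for the human members that the RefSeq promoter table (GRCh38.p14) holds, C1R, CFB, CD55 and CD59, since 3 of these genes had higher counts with ponatinib and CD59 had lower ones. C3, C1S, SERPING1 and CLU were not in the table. Each line gives the 250 bases before the start of the canonical transcript, 5′ to 3′ on the strand of the gene, and other annotated transcripts of these genes start inside or before the windows. Capitals mark matches on either strand to the letters of 4 motifs: the GAS element bound by STAT dimers (TTCNNNGAA), the core of the interferon-stimulated response element (ISRE: GAAA, 2 free bases, GAAA), an NF-κB motif (GGGA, 4 free bases, CC) and the AP-1 motif (TGANTCA).
C1R (chr12:7092446-7092695, minus strand): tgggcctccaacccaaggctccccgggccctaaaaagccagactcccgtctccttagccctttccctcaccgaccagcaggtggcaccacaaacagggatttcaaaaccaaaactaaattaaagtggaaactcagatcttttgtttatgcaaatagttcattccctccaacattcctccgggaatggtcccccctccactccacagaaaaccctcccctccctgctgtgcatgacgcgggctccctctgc
CFB (chr6:31945845-31946094, plus strand): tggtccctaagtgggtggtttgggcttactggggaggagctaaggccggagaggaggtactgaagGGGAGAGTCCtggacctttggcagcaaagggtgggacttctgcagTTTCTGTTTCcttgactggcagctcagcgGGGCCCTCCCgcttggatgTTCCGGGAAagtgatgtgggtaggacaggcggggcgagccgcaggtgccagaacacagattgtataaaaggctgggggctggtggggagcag
CD55 (chr1:207321428-207321677, plus strand): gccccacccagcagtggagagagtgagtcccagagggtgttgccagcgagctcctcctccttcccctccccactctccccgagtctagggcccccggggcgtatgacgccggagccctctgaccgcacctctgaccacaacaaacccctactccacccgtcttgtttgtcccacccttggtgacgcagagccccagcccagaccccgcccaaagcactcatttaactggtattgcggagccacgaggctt
CD59 (chr11:33736424-33736673, minus strand): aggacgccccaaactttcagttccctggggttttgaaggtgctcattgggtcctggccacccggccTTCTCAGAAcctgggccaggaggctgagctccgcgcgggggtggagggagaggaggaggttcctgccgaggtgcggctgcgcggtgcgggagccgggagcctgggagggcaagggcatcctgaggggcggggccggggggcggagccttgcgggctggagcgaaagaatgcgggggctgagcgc
The CFB window held the GAS letters as TTCCGGGAA, 92 to 84 bases before the start, the ISRE core as TTTCTGTTTC at 140 to 131 bases, and the NF-κB letters at 185 to 176 and at 111 to 102 bases. The CD59 window held the GAS letters as TTCTCAGAA, 184 to 176 bases before the start. The 250 bases printed for C1R and CD55 held none of the 4 motifs, and no matches overlapped each other. The table holds 8 windows of 300 bases for these 4 genes, at other starts as well. CD59 has 4 of them, C1R 2, CFB 1 and CD55 1, and windows of the same gene are not independent. Of the 8 windows, 4 held the GAS letters (C1R, CD59 and CFB), 1 the ISRE core (CFB), 3 the NF-κB letters (C1R and CFB) and 1 the AP-1 letters (CD59). Among all 35116 windows of 300 bases in the table (250 before and 50 after a start), 7.66% held the GAS letters, 3.57% the ISRE core, 25.6% the NF-κB letters and 7.71% the AP-1 letters. A match describes the letters only and was not tested as a binding site.

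In MDA-MB-231, ponatinib was accompanied by higher counts of the central component, of the classical proteases, of CD55 and of CLU, and by lower counts of CD59. Among the 8 members, 6 passed the filter on low counts, of which 5 were called higher and 1 lower, and CFB and SERPING1 had too few counts to be tested. Among all 14610 tested genes, 27.2% were called higher and 26.8% lower. In 4T1, 7 members passed the filter, of which 5 were called higher, none lower and 2 in neither direction, and Serping1 had too few counts. Of all 13286 genes tested there, 29.5% were called higher and 29.4% lower. Since more than 1 in 2 genes was called in each line (54% and 59%), a call alone sets no member apart, and the sizes of the changes and the values per library are given for each gene. Cd55 in 4T1 passed the filter through its ponatinib libraries only, so these numbers of calls are a description of the members.

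**Figure D1:**
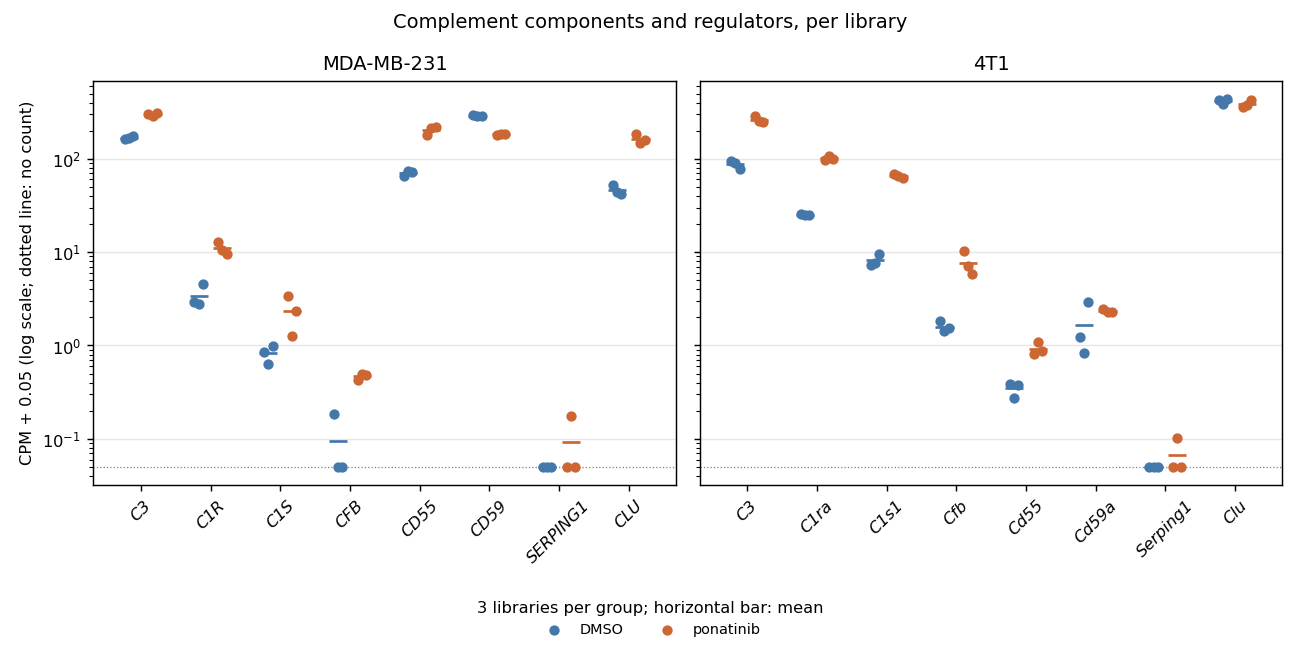
Expression of the 8 members in each MDA-MB-231 library (left panel) and each 4T1 library (right panel), as CPM plus a constant of 0.05 on a log scale, with 3 DMSO libraries (blue) and 3 ponatinib libraries (orange) per gene and a bar at the mean. CD59 is the member of MDA-MB-231 whose ponatinib points lie below its DMSO points, and the Clu and Cd59a points of 4T1 overlap.

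C3 (ENSG00000125730, chromosome 19 of hg38 from 6677704 to 6730562) encodes the component on which both pathways meet. Its DMSO libraries held 162, 169 and 175 CPM and its ponatinib libraries 302, 285 and 310 CPM. Every ponatinib library lay above every DMSO library, as in 30.6% of all tested genes, and the groups lay apart in either direction in 60.4%. Mean C3 was 168 ± 6.51 and then 299 ± 12.7 CPM (SD, n = 3 each), a 1.78-fold difference with a log2 fold change of 0.83 (SE 0.07, adjusted p = 2.73e-06, edgeR quasi-likelihood F-test, Benjamini-Hochberg). In 4T1, C3 (ENSMUSG00000024164, chromosome 17 of GRCm39 from 57510964 to 57535155) had 93.9, 90.9 and 77.4 CPM with DMSO and 287, 251 and 248 CPM with ponatinib. The groups did not overlap here either, with ponatinib above DMSO as in 32.6% of all genes tested in 4T1, where 63.4% had groups apart in either direction. The log2 fold change was 1.58 (SE 0.09, 2.995-fold, adjusted p = 2.87e-09 by the same edgeR test), from 87.4 ± 8.81 to 262 ± 21.6 CPM (SD, n = 3 each). The rise of C3 was larger in 4T1: the difference of the log2 fold changes, 4T1 minus MDA-MB-231, was 0.75 (95% interval 0.50 to 1.00, adjusted p = 4.68e-05 by edgeR's test of the interaction of line and treatment). This interaction was tested over 12494 genes paired between the species, of which 42% were called.

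C1R and C1S, the paired proteases of the C1 complex, were low in MDA-MB-231 and rose from that level. C1R (ENSG00000159403, chromosome 12 from 7080214 to 7092540) had 2.85, 2.72 and 4.53 CPM with DMSO, from 42 to 72 counts a library, and 12.9, 10.4 and 9.53 CPM with ponatinib, from 163 to 205 counts. The lowest ponatinib library was above the highest DMSO library, and the log2 fold change was 1.69 (SE 0.21, 3.23-fold, adjusted p = 3.79e-05, edgeR quasi-likelihood F-test, Benjamini-Hochberg). C1S (ENSG00000182326, chromosome 12 from 6988259 to 7071032) had 12, 9 and 15 counts with DMSO and 53, 19 and 42 with ponatinib. Its ponatinib libraries spread almost 3-fold, from 1.21 to 3.34 CPM, yet all lay above the DMSO libraries, which held 0.583 to 0.944 CPM. The log2 fold change of C1S was 1.55 with a 95% interval of 0.67 to 2.43 (adjusted p = 0.00617 by the same edgeR test), and 2 of its 3 DMSO libraries were over the filter. Of the exon bases of C1R, 11.6% (672 bases) are shared with C1RL, its neighbour on the same strand, and how the authors' counting treated shared reads is not given in the sources used here.

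In 4T1, the classical proteases had more counts than in MDA-MB-231, and both rose. C1ra (ENSMUSG00000055172, chromosome 6 of GRCm39 from 124489364 to 124500402) had 25.3, 24.7 and 24.7 CPM with DMSO and 97.1, 106 and 100.5 CPM with ponatinib. The replicates of both groups were tight, and the log2 fold change was 2.02 (SE 0.08, 4.06-fold, adjusted p = 6.89e-11, edgeR quasi-likelihood F-test, Benjamini-Hochberg). C1s1 (ENSMUSG00000038521, chromosome 6 from 124507297 to 124559389) went from 7.26, 7.67 and 9.52 CPM to 68.0, 65.3 and 62.0 CPM. With a log2 fold change of 2.996 (SE 0.11, 7.98-fold, adjusted p = 3.87e-11 by the same edgeR test) it had the largest change of any tested member in either line. The ratio of C1ra to C1s1 counts within a library fell from between 2.60 and 3.49 with DMSO to between 1.43 and 1.63 with ponatinib, whereas the ratio of C1R to C1S counts in MDA-MB-231 overlapped between the groups (3.58 to 4.80 and 3.87 to 8.58). An antisense gene, Gm16567, covers 16.6% of the exon bases of C1s1, and whether strand was used in the counting is not given in the sources used here.

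The rise of C1s1 was larger than that of C1S, with a difference of log2 fold changes of 1.44 (95% interval 0.59 to 2.30, adjusted p = 0.00783, edgeR's interaction test with Benjamini-Hochberg adjustment). This call was lost without replicate 3 of MDA-MB-231 with DMSO, which left a difference of 1.28 and an adjusted p of 0.0509 by edgeR, and its p stayed under the threshold in the other alternatives. For C1ra against C1R the difference was 0.33 with an interval of -0.10 to 0.77 and was not called (adjusted p = 0.220 by edgeR). Without replicate 1 of every group, a setting chosen after seeing the data, this difference became 0.62 and was called (adjusted p = 0.0170 by edgeR).

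The relatives of the C1 proteases moved in the same direction. C1RL, a C1r-like protease, went from 2.11 ± 0.353 to 6.12 ± 0.490 CPM in MDA-MB-231 (SD, n = 3 each, log2 fold change 1.53, adjusted p = 4.76e-05 by edgeR, quasi-likelihood F-test, Benjamini-Hochberg). Its mouse counterpart C1rl went from 5.19 ± 0.498 to 32.6 ± 2.14 CPM in 4T1 (SD, n = 3 each, log2 fold change 2.65, adjusted p = 3.80e-10 by edgeR). C1rb, a near copy of C1ra, had 35, 11 and 17 counts with DMSO and 100, 102 and 101 with ponatinib, with a log2 fold change of 2.17 (adjusted p = 2.31e-05 by edgeR). C1s2, a near copy of C1s1, had 5 counts in all with DMSO and 32 with ponatinib and was not tested: the ratio of CPM was 6.02, with a 95% interval of 2.33 to 19.8 that covers counting error only. Since reads of near copies can be assigned to either gene, the values of C1ra, C1rb, C1s1 and C1s2 are uncertain by the amount shared. For each pair, the summed counts were higher with ponatinib than with DMSO.

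Factor B had very few counts in MDA-MB-231 and a low CPM in 4T1. CFB (ENSG00000243649, chromosome 6 from 31945650 to 31952086) had 2, 0 and 0 counts with DMSO and 6, 7 and 8 with ponatinib. Its groups did not overlap, but no library was over the filter, and the ratio of 9.78 had a 95% counting interval of 2.39 to 86.1, so its size is poorly known. Cfb in 4T1 (ENSMUSG00000090231, chromosome 17 from 35074852 to 35081559) had 1.76, 1.39 and 1.48 CPM with DMSO and 10.1, 7.08 and 5.75 CPM with ponatinib. All ponatinib libraries lay above the DMSO libraries, and the log2 fold change was 2.31 (SE 0.24, 4.96-fold, adjusted p = 1.43e-06, edgeR quasi-likelihood F-test, Benjamini-Hochberg). The difference between the lines was -0.78 with an interval of -3.21 to 1.64, too wide to compare the lines at this depth. Overlapping genes cover 42.8% of the exon bases of CFB and 78.2% of those of Cfb. They are mostly a read-through transcript with C2 and, for Cfb, also Nelfe on the opposite strand. How the authors' counting treated shared reads is not given, so the levels of CFB and Cfb are uncertain here and in later comparisons. The promoter of CFB is the printed window with the most motif matches, 4 in all.

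**Figure D2:**
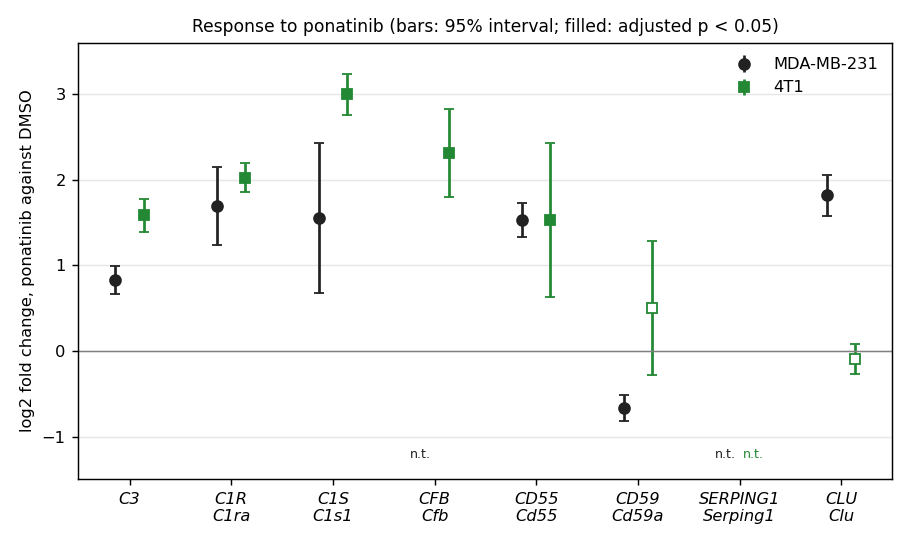
Log2 fold change of ponatinib against DMSO for each member in MDA-MB-231 (black circles) and 4T1 (green squares), with 95% intervals from edgeR. Filled symbols passed an adjusted p of 0.05, open symbols did not, and n.t. marks genes that were not tested. C1s1 lies highest at 2.996, CD59 lowest at -0.67, and CLU and Clu lie 1.91 apart.

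The membrane regulators CD55 and CD59 moved in opposite directions in MDA-MB-231. CD55 (ENSG00000196352, chromosome 1 from 207321519 to 207386804) had 65.9, 73.8 and 71.5 CPM with DMSO and 180, 212 and 217 CPM with ponatinib. All ponatinib libraries were above the DMSO libraries, with a log2 fold change of 1.53 (SE 0.09, 2.88-fold, adjusted p = 1.44e-07, edgeR quasi-likelihood F-test, Benjamini-Hochberg). CD59 (ENSG00000085063, chromosome 11 from 33703010 to 33736479) had 293, 290 and 284 CPM with DMSO and 179, 185 and 182 CPM with ponatinib. Its groups lay apart in the other direction, as in 29.8% of all tested genes, and it fell by 0.67 on the log2 scale (SE 0.07, 1.59-fold lower, adjusted p = 8.41e-06 by the same edgeR test). Within a library, the count of CD55 was 0.225 to 0.254 times that of CD59 with DMSO and 1.01 to 1.19 times that of CD59 with ponatinib. CD46, the third membrane regulator of human cells and a cofactor for cleavage of C3b and C4b, changed less: it went from 63.3 ± 6.17 to 82.4 ± 10.4 CPM (SD, n = 3 each, log2 fold change 0.38, adjusted p = 0.0103 by edgeR). The call of CD46 was lost without replicate 2 of MDA-MB-231 with ponatinib (log2 fold change 0.33, adjusted p = 0.0541 by edgeR).

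In 4T1, the counterparts of CD55 and CD59 were scarce. Cd55 (ENSMUSG00000026399, chromosome 1 from 130366469 to 130390926) had 6, 4 and 6 counts with DMSO and 15, 20 and 15 with ponatinib. No DMSO library was over the filter and all 3 ponatinib libraries were, and the log2 fold change of 1.53 had a 95% interval of 0.63 to 2.43 (adjusted p = 0.00537, edgeR quasi-likelihood F-test, Benjamini-Hochberg). Cd55 and CD55 thus had close estimates, with a difference of 0.00 whose interval ran from -0.78 to 0.78, which leaves room for unequal changes. Cd59a (ENSMUSG00000032679, chromosome 2 from 103926132 to 103947029) had 21, 14 and 52 counts with DMSO and 47, 43 and 41 with ponatinib. DMSO replicate 3 was above every ponatinib library, so the groups overlapped, and Cd59a was not called (log2 fold change 0.50, 95% interval -0.28 to 1.28, adjusted p = 0.251 by edgeR). Without that library the log2 fold change was 1.21 and was called higher (adjusted p = 0.00588 by edgeR), so 1 library decided this value. The response of CD59 and Cd59a differed between the lines by 1.17 (95% interval 0.53 to 1.80, adjusted p = 0.00404 by edgeR's interaction test), a call that held in every alternative run. The second copies of these genes in the mouse genome, Cd55b and Cd59b, had 0 and 2 counts in all libraries together.

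The main membrane regulator of 4T1 by level was Crry, encoded by Cr1l, which limits C3 convertases on mouse cells and was singled out after its values were seen. Cr1l had 54.3, 63.0 and 65.6 CPM with DMSO and 54.5, 59.3 and 57.4 CPM with ponatinib. The groups overlapped, and its log2 fold change was -0.10 (95% interval -0.28 to 0.09, adjusted p = 0.364, edgeR quasi-likelihood F-test, Benjamini-Hochberg), with a value of 0.02 when libraries were scaled by total counts. Cd46, which in mice is known mainly from the sperm acrosome, went from 1.37 ± 0.178 to 2.48 ± 0.760 CPM (SD, n = 3 each, log2 fold change 0.85, adjusted p = 0.0184 by edgeR). That call was lost without DMSO replicate 2 (adjusted p = 0.0673 by edgeR) or without ponatinib replicate 2 (adjusted p = 0.123 by edgeR).

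**Figure D3:**
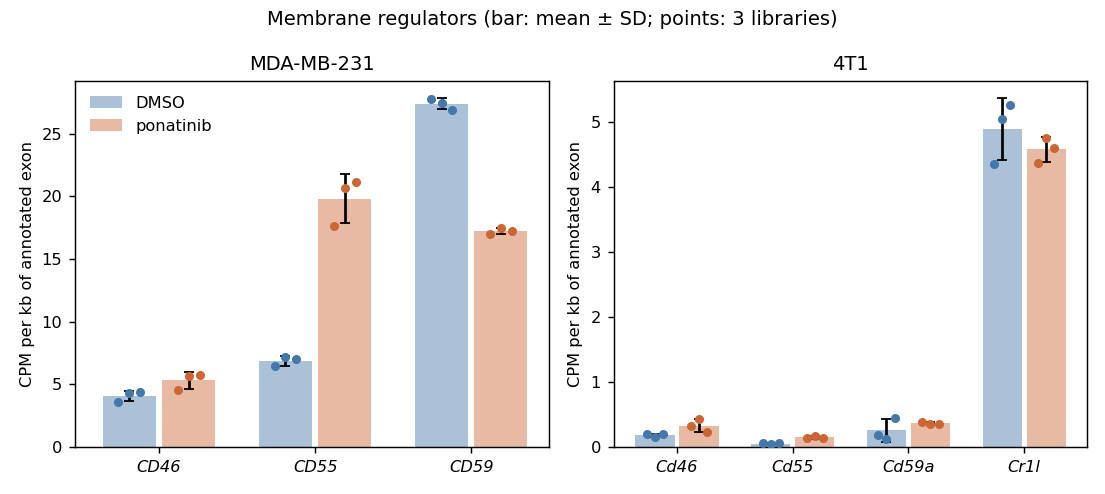
Membrane regulators as CPM per kb of annotated exon for MDA-MB-231 (left panel) and 4T1 (right panel), with bars at the mean, error bars of 1 SD and a point for each of the 3 libraries of DMSO (blue) and ponatinib (orange). With ponatinib CD55 rose past CD59 in MDA-MB-231, while Cr1l was the highest of the regulators drawn for 4T1 in both groups. The scales of the panels differ.

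Of the fluid-phase regulators among the members, SERPING1 was at the limit of detection and CLU was abundant. SERPING1 (ENSG00000149131, chromosome 11 from 57597387 to 57619171) had 0 counts in every DMSO library of MDA-MB-231 and 0, 2 and 0 with ponatinib. Serping1 (ENSMUSG00000023224, chromosome 2 from 84595705 to 84620873) had 0 counts in every DMSO library of 4T1 and 0, 1 and 0 with ponatinib. A count of 0 allows up to 0.199 CPM in an MDA-MB-231 library and up to 0.170 CPM in a 4T1 library (3 counts, counting error only), and no fold change was computed. The transcript of the inhibitor of C1r and C1s thus stayed under 3 counts in all 12 libraries, each of which held counts of both proteases.

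CLU (ENSG00000120885) had 52.5, 44.1 and 41.9 CPM with DMSO and 183, 148 and 158 CPM with ponatinib in MDA-MB-231. No ponatinib library came near the DMSO libraries, and the log2 fold change of 1.82 (SE 0.11, 3.53-fold, adjusted p = 1.57e-07, edgeR quasi-likelihood F-test, Benjamini-Hochberg) was the largest among the members tested in this line. Clu in 4T1 (ENSMUSG00000022037, chromosome 14 from 66190200 to 66218999) had 423, 382 and 432 CPM with DMSO and 358, 379 and 421 CPM with ponatinib. These groups overlapped, and Clu was not called, with a log2 fold change of -0.10 and a 95% interval of -0.27 to 0.08 (adjusted p = 0.335 by the same edgeR test). Its sign turned with total counts (0.02), a scaling that put the median over all genes at 0.11 for MDA-MB-231 and 0.12 for 4T1, against 0.02 and -0.00 under TMM. The responses of CLU and Clu differed by 1.91 on the log2 scale (4T1 minus MDA-MB-231 -1.91, 95% interval -2.21 to -1.62, adjusted p = 3.80e-09 by edgeR's interaction test), the largest difference between the lines among the members. The line with the higher CPM with DMSO was the one without a called change, and a link between the 2 was not tested.

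Per kb of annotated exon, the order of the members by group mean changed with treatment in MDA-MB-231 and stayed the same in 4T1. With DMSO, MDA-MB-231 had 27.4 CPM per kb of CD59, 14.5 of C3, 7.35 of CLU and 6.87 of CD55, and the ranges of CLU and CD55 overlapped. C1R (0.580 CPM per kb) and C1S (0.0933 CPM per kb) followed far below, with CFB and SERPING1 last. With ponatinib, CLU and C3 stood together at 25.9 CPM per kb each, CD55 at 19.8 and CD59 at 17.2, so CD59 moved from the highest place to below the other three. In 4T1 the order with DMSO was Clu (73.3 CPM per kb), C3 (16.9), C1ra (7.82), C1s1 (2.35), Cfb (0.451), Cd59a (0.255) and Cd55 (0.0502), where the ranges of Cfb and Cd59a overlapped. With ponatinib it was the same order, with Clu at 68.6, C3 at 50.5, C1ra at 31.8, C1s1 at 18.8 and Cfb at 2.24 CPM per kb. With the length of the canonical transcript in place of all exons, a setting chosen after seeing the data, CD55 (78.4 CPM per kb) came first in MDA-MB-231 with ponatinib, ahead of CLU (59.2) and C3 (57.2), and Cd59a (0.941) passed Cfb (0.461) in 4T1 with DMSO.

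The rest of the complement system was read from a list of 54 human and 51 mouse genes. In MDA-MB-231, 15 of the 54 had no count and 12 could be tested, of which 6 were called higher, 2 lower and 4 in neither direction, with a median log2 fold change of 0.46 against 0.02 over all genes. In 4T1, 23 of the 51 had no count and 12 could be tested. Of these, 5 were called higher (6 with the replicate number as a block), 2 lower and 5 in neither direction. Their median was 0.57 against -0.00 over all genes. Of every gene tested in the human line, 27.2% rose and 26.8% fell by the same criterion. In the mouse line these shares were 29.5% and 29.4%. For C4A (human) and C4bp (mouse), only ponatinib libraries lay over the filter. Each could thus enter only on the higher side, and the tallies and medians are descriptive. C1QA, C1QB and C1QC, the recognition subunits of C1, had 0 counts in all 12 libraries under either species' symbols, although both proteases of the complex were measured. Of the initiators, PTX3, a secreted pattern-recognition protein that can bind C1q, was tested in MDA-MB-231 alone and went from 26.5 ± 2.82 to 8.80 ± 0.789 CPM (SD, n = 3 each, log2 fold change -1.59, adjusted p = 1.13e-06, edgeR quasi-likelihood F-test, Benjamini-Hochberg).

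Among the proteases and convertase subunits, MDA-MB-231 gave 1 call in 3 tested genes and 4T1 gave 2 in 4. Calls in either direction covered 54% of everything tested in the human line and 59% in the mouse line. Neither tally exceeded this background. C4A, whose product is cleaved by C1s, had 3, 5 and 9 counts with DMSO and 11, 18 and 25 with ponatinib (log2 fold change 1.54, adjusted p = 0.0141 by edgeR, quasi-likelihood F-test, Benjamini-Hochberg). This call is weak: C4A has the near-identical copy C4B, its DMSO libraries were all under the filter, and its adjusted p by edgeR rose to between 0.0525 and 0.0633 when DMSO replicate 1, DMSO replicate 2 or ponatinib replicate 3 was left out. CFD, the protease that activates factor B, was not called in MDA-MB-231 (10.5 ± 2.19 and 11.6 ± 3.35 CPM, SD, n = 3 each). In 4T1, Masp1, a protease of the lectin pathway, rose from 11.2 ± 1.11 to 22.3 ± 2.58 CPM (SD, n = 3 each, log2 fold change 0.99, adjusted p = 1.06e-05 by edgeR). C2, the classical convertase subunit, rose in 4T1 from 0.632 ± 0.232 to 1.62 ± 0.119 CPM (SD, n = 3 each, log2 fold change 1.35, adjusted p = 0.00316 by edgeR).

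Of the fluid-phase regulators outside the members, C4BPB rose most. C4BPB, the β chain of C4b-binding protein, had 17.8, 15.6 and 15.3 CPM with DMSO and 86.6, 75.5 and 75.5 CPM with ponatinib in MDA-MB-231. All ponatinib libraries lay far above the DMSO libraries, with a log2 fold change of 2.29 (SE 0.10, 4.87-fold, adjusted p = 1.58e-08, edgeR quasi-likelihood F-test, Benjamini-Hochberg). C4BPA, which encodes the α chain that makes up most of the protein, had 1 count in the 6 libraries. In 4T1, C4bp rose from 0.425 ± 0.173 to 1.59 ± 0.175 CPM (SD, n = 3 each, log2 fold change 1.88, adjusted p = 0.000493 by edgeR), with no DMSO library over the filter.

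In the terminal pathway the counts were low. C8G, the γ subunit of C8, went from 1.26 ± 0.379 to 2.86 ± 0.969 CPM in MDA-MB-231 and C8g from 2.32 ± 0.179 to 4.03 ± 1.13 CPM in 4T1 (SD, n = 3 each), with log2 fold changes of 1.16 and 0.80 (adjusted p = 0.00911 and 0.0104 by edgeR, quasi-likelihood F-test, Benjamini-Hochberg). Both calls were lost without replicate 1 (adjusted p = 0.0916 and 0.0541 by edgeR), and that of C8g also without ponatinib replicate 1 alone (adjusted p = 0.0534 by edgeR). C9, singled out after its values were seen, had 0 counts in the 3 DMSO libraries of 4T1 and 9, 12 and 10 with ponatinib, at least 9.71-fold higher when the 3 DMSO libraries together are set to 3 counts.

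Of the receptors, C1QBP, a mostly mitochondrial protein that was named for its binding of C1q, was lower in both lines. It fell from 325 ± 44.3 to 138 ± 16.3 CPM in MDA-MB-231 (SD, n = 3 each, log2 fold change -1.23, adjusted p = 3.46e-06, edgeR quasi-likelihood F-test, Benjamini-Hochberg), and C1qbp in 4T1 went from 257 ± 9.61 to 189 ± 9.40 CPM (SD, n = 3 each, log2 fold change -0.44, adjusted p = 0.000105 by edgeR). C3ar1, the receptor for C3a, went in 4T1 from 8.40 ± 0.547 to 3.06 ± 1.27 CPM (SD, n = 3 each, log2 fold change -1.45, adjusted p = 6.02e-05 by edgeR). Its ponatinib libraries lay below all DMSO libraries, as in 30.8% of the genes tested in 4T1. ITGB2, the β chain of the complement receptors CR3 and CR4, rose in MDA-MB-231 from 28.6 ± 4.90 to 41.7 ± 2.25 CPM (SD, n = 3 each, log2 fold change 0.55, adjusted p = 0.00226 by edgeR), while ITGAM and ITGAX, the α chains, had 3 and 2 counts in all.

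**Figure D4:**
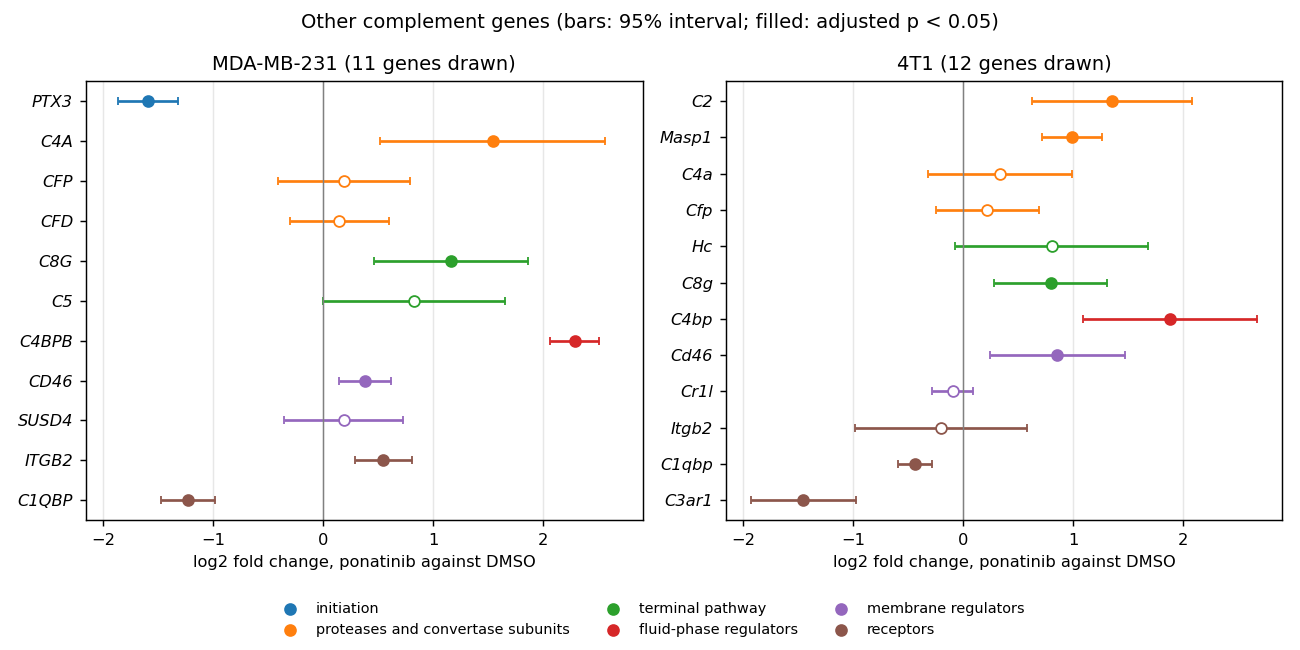
Log2 fold change of ponatinib against DMSO for 11 of the 12 other complement genes tested in MDA-MB-231 (left) and the 12 tested in 4T1 (right), colored by role, with 95% intervals from edgeR and filled symbols at an adjusted p under 0.05. C4BPB has the largest rise (2.29) and PTX3 the largest fall (-1.59) of the genes drawn.

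Markers of other cell types were read beside these results, since stromal and myeloid cells also make complement. Both lines were grown without immune or stromal cells of a host, so the markers were read as genes of the lines. In bulk RNA, a change in the number of cells within a line that express a gene cannot be told apart from a change in RNA per cell. In MDA-MB-231, the summed level of 6 fibroblast markers went from 26.5 to 31.5 CPM with DMSO to 81.1 to 87.8 CPM with ponatinib, through COL1A1 and PDGFRB (2 of 6 called higher). The other 4 had between 2 and 5 counts each in the 6 libraries, among them DCN with 2 and LUM with 2. In 4T1, the fibroblast sum went from 6.67 to 7.55 CPM to 9.51 to 10.2 CPM, with 1 of 6 markers called higher, 2 lower and Col1a2, Dcn and Lum at 0. The sum of 7 macrophage and leukocyte markers in 4T1, nearly all of it Cd14, fell from 226 to 252 CPM to 140 to 158 CPM. Of these 7 markers, Cd14 alone was called lower, Cd68 and Lyz2 were not called, and 4 were not tested. Among the latter, Adgre1 had 0 counts in 4T1 and Csf1r had 1. In MDA-MB-231 the macrophage and leukocyte sum was 14.1 to 15.2 CPM with DMSO and 15.5 to 17.4 CPM with ponatinib, most of it ADGRE1. Of its 7 markers there, CSF1R was called higher (0.735 and 1.80 CPM), 2 were not called and 4 were not tested, with PTPRC, LYZ and AIF1 at 0. The part of these levels in the complement results was not tested.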

How the data were processed

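Total RNA of MDA-MB-231 and 4T1 cells was sequenced in 3 libraries per group (12 in all), and samples were grouped by their labels. The deposited values are raw read counts per gene that the authors made without normalization, and the submitters' processing notes name HISAT2, HTSeq, hg38 and GRCm39. Tool versions, gene annotation, strand setting and the treatment of shared reads are not given in the sources used here. Gene names and coordinates came from GENCODE v44 and vM39, which matched 81.9% of human and 91.1% of mouse identifiers (99.3% and 99.8% of the counts).

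From these counts, edgeR 4.0.16 in R 4.3.3 gave the differences (filterByExpr, TMM, glmQLFit, glmQLFTest, Benjamini-Hochberg), with a fit per line and an interaction fit over all 12 libraries. The filter lay near 0.625 CPM in MDA-MB-231 and 0.537 CPM in 4T1, in 3 libraries. The steps were tested on simulated data. Alternatives were DESeq2 1.42.0, its size factors, total counts, no filter, a minimum of 10 counts in every library, a replicate block, and each replicate left out. The lengths behind CPM per kb are the union of annotated exons.

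The members, lists and motifs were chosen with earlier results of these data known. Every member and paralog is named, and of the other complement genes up to 4 per role and line that were called at 1 CPM or more in the higher group. Cr1l, C9 and CFD fall outside this rule and were chosen after their values were seen. The result of 1 further gene is not reported here.

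The labels do not say that replicates were separate cultures, so p-values measure the spread between these libraries, which may be technical. No library was a copy of another. Libraries with the same replicate number deviated together (correlations of deviations 0.175 to 0.498 for MDA-MB-231 and 0.153 to 0.278 for 4T1). Some unlike numbers did so as well: DMSO 2 with ponatinib 3 in MDA-MB-231 (0.274) and DMSO 3 with ponatinib 2 in 4T1 (0.218). The main fits did not pair libraries. For the replicate block, which was an alternative, the numbers were taken to pair them on these values alone, which do not settle the pairing of replicates 2 and 3. The pairing changed no call of a member.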

Additional observations from a re-analysis of the deposited data

Results flagged for a closer look

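Among the 8 members, all but SERPING1 were tested for a difference between the lines. Of these, 4 responded to ponatinib by different amounts in the 2 lines. Each was called by edgeR's test of the interaction of line and treatment with Benjamini-Hochberg adjustment. As 4T1 minus MDA-MB-231 on the log2 scale, the difference was 0.75 for C3 (adjusted p = 4.68e-05), 1.44 for C1S against C1s1 (adjusted p = 0.00783), 1.17 for CD59 against Cd59a (adjusted p = 0.00404) and -1.91 for CLU against Clu (adjusted p = 3.80e-09), all from edgeR. Among all genes tested this way, 42% were called. Species, line and annotation differ together between the lines and cannot be told apart.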

How the results depend on the processing

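Across the alternatives, each member that was tested kept its direction and its call within its line, except that Clu in 4T1 turned to 0.021 with total counts and Cd59a was called higher (1.21) without DMSO replicate 3 of 4T1. Cr1l likewise turned to 0.021 with total counts. Leaving out 1 replicate at a time, or replicate 1 of every group, gave 5 members called higher and 1 called lower in MDA-MB-231, 5 to 6 called higher and 0 lower in 4T1, and 3 to 5 members differing between the lines. Of the other complement genes, 5 to 6 were then called higher and 2 called lower in MDA-MB-231, and 4 to 7 higher and 2 lower in 4T1. With at least 10 counts in every library, 3 of these genes in place of 5 were higher in 4T1, since fewer genes were tested, and C1S in MDA-MB-231 and Cd55 in 4T1 were not tested. The difference between the lines for CD55, near 0 in the main setting, lay between -0.16 and 0.16 in these runs, and its sign turned without MDA-MB-231 DMSO replicate 2 or 3, MDA-MB-231 ponatinib replicate 1, or 4T1 DMSO or ponatinib replicate 2. With the replicate block, 5 members were called higher and 1 called lower in MDA-MB-231, 5 higher in 4T1 and 4 differed between the lines, as without it. With no filter, 6 members were called higher in MDA-MB-231, 1 of them not tested in the main setting, and 7 other complement genes were called higher in each line, with 3 lower in 4T1. Of the other complement genes, the block gave 6 higher in 4T1 in place of 5 and changed no other such number. Depth limits CFB, SERPING1, Serping1, Cd55 and C1S, which rest on few counts, and CFB also shares exon bases with other genes.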
